A study of Mus musculus with 4 samples.

Results

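Retained-intron transcripts are spliced RNAs of a gene in which a stretch that other transcripts of the same gene treat as intron is kept as exon. The set described here holds the Ensembl transcripts that the annotation (GENCODE M1, on the mm9 mouse genome) types as retained_intron and whose counts sum to over 20 across the 4 libraries. Of 95883 transcripts in the count tables, 11496 carry this type and 6196 of them (53.9%) passed the count rule. These 6196 members belong to 3552 genes. Of the others, 1441 had no base that could be counted, 1156 had 0 counts and 2703 had 1 to 20 counts. The members were thus chosen by their count sum over both ages together and not by a difference between the ages, so the ages are compared with a test and the count sums are given as a description. The threshold lay in a dense range, with 86 members at a sum of 21 and 72 transcripts left out at a sum of 20. Just inside were members of Drp2, Zfp931 and Mapk8ip3, of which that of Drp2 had 14 and 4 counts in mature and 0 and 3 in elderly libraries, and just outside were transcripts of Vwa5b2, Smarcd2 and Gyk, of which that of Smarcd2 had 3 and 3 against 8 and 6.

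The RNA came from bone marrow of wild-type male C57Bl/6 mice, which carried no transgene and received no treatment. The groups were mature mice, 3 months old, and elderly mice, 24 months old, with 2 libraries per age. The study's methods state that RNA of 3 or 4 mice per group was pooled, whereas the sample titles number the libraries as single mice. How many mice stand behind each library is therefore not settled. According to the study's methods the RNA is that of sorted Lin- LEPR+ cells, which lack Ter119, CD31 and CD45 and carry the leptin receptor, a population that holds skeletal stem and progenitor cells, whereas the sample labels name whole bone marrow. The libraries held between 10472117 and 15650518 counts. The study's methods describe poly(A) selection, with named exceptions that were processed as total RNA. The exceptions include a sample labelled by an age in weeks, and the sources do not state whether a library used here is among them. If the selection differed between the ages, its effect could not be told apart from that of age. A p-value here measures the spread between the libraries of an age, and in bulk RNA a smaller number of cells of a type cannot be told apart from less RNA per cell.

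Markers checked the label. The 16 genes of the stromal list (Lepr, Cxcl12, Kitl, Foxc1 and others) were all above 20 counts and summed to between 28728 and 40324 CPM, the count scaled to a common library size with the factors of the trimmed mean of M-values (TMM). Markers of blood and endothelial cells summed to lower levels. The 27 erythroid genes found in the annotation summed to 849 and 521 CPM in the mature and to 2261 and 2228 CPM in the elderly libraries, and the 22 neutrophil genes to 2264 and 1322 CPM against 4986 and 5109 CPM. None of these erythroid or neutrophil genes was at 0. The macrophage list (4823 and 4406 against 3851 and 5674 CPM), the megakaryocyte list (60.8 and 390 against 207 and 344 CPM) and the endothelial list (26.4 and 37.9 against 37.2 and 42.0 CPM) overlapped between the ages, while the B lineage, plasma and T cell lists were higher in both elderly libraries, at no more than 179 CPM. The osteoblast list (Col1a1, Bglap, Ibsp and others) went the other way, from 7018 and 6511 CPM to 2282 and 4385 CPM. The part of these shifts in the results below was not tested, and a share without members of blood cell marker genes is given as a description.

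Introns are removed by the spliceosome, which recognises a donor site at the start of the intron and an acceptor site at its end. An intron that is left in often brings an early stop codon into the reading frame, and many such RNAs stay in the nucleus or are degraded, so retention lowers the amount of translatable mRNA without a change in transcription. Genes of the splicing machinery itself, in particular the SR proteins and the CLK kinases that phosphorylate them, are known for introns that are kept in the nucleus and spliced out when the kinases' activity changes.

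The counts of a member cover only its own bases, those exonic bases that it shares with no other transcript on either strand. For 5888 of 6196 members all own bases lay inside introns of protein-coding transcripts of the same gene, and for 6047 at least 90% did. Most members therefore measure reads from intronic sequence. A read there looks the same whether it came from the annotated transcript, from an unspliced precursor or from another RNA through the same bases. The median member had 398.5 own bases (quartiles 228 and 1005). An exon of 1960 members (31.8%) ran through at least 1 whole intron of a protein-coding transcript, and 532 of these spanned 2 or more. In 4198 other members, in genes with a protein-coding transcript, no exon ran through a whole intron. Counted apart from this and overlapping with it, own bases of 466 members reached past the end of a protein-coding transcript. Those of 252 members lay before a start.

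The splice sites of introns that members ran through whole are printed for members named in the results, so that the ends of the kept stretch can be read. They come from splicing regulator genes and from genes whose member differed with age. Each donor line holds 3 exon bases and 6 intron bases with the first 2 intron bases in capitals, and each acceptor line holds 20 intron bases and 3 exon bases with the last 2 intron bases in capitals. All are written on the strand of the gene, from the mm9 genome. The intron of Srsf3 is intron 4 of 5 at chr17:29177759-29178151 (plus strand, 393 bases), that of Srsf11 is intron 4 of 5 at chr3:157687726-157689688 (minus strand, 1963 bases), and that of Srsf5 is intron 5 of 8 at chr12:82048582-82048782 (plus strand, 201 bases). The intron of Clk4 is intron 8 of 12 at chr11:51089367-51089619 (plus strand, 253 bases). The intron of Lgr5 is intron 11 of 17 at chr10:114899824-114903185 (minus strand, 3362 bases), and that of Clcn3 is intron 10 of 13 at chr8:63401986-63406028 (minus strand, 4043 bases). The intron of Prc1 is intron 3 of 14 at chr7:87446046-87449246 (plus strand, 3201 bases), and that of Tmcc2 is intron 3 of 4 at chr1:134255616-134256851 (minus strand, 1236 bases). The intron of Gpc2 is intron 1 of 9 at chr5:138720226-138720876 (minus strand, 651 bases), and that of Tle2 is intron 8 of 20 at chr10:81043660-81044389 (plus strand, 730 bases).
Srsf3 donor: cagGTaaat
Srsf3 acceptor: gaatgtgctgtttgttttAGgtc
Srsf11 donor: aagGTttgt
Srsf11 acceptor: atttctacacattcatgcAGtat
Srsf5 donor: acgGTatgt
Srsf5 acceptor: gcttatttttctttcttcAGaaa
Clk4 donor: atgGTaagt
Clk4 acceptor: ttattcaattgtgtctctAGaaa
Lgr5 donor: gctGTgcgt
Lgr5 acceptor: ttgcaccttttgctttccAGaga
Clcn3 donor: tagGTaata
Clcn3 acceptor: ctggtgttcatttctttcAGgtg
Prc1 donor: cagGTctgg
Prc1 acceptor: aatcatgtaatctcctccAGgaa
Tmcc2 donor: cagGTgggt
Tmcc2 acceptor: tgcctgcccctctcccctAGgta
Gpc2 donor: cagGTgaga
Gpc2 acceptor: tccctgtctcctctgcgcAGgtg
Tle2 donor: aggGTgagt
Tle2 acceptor: ccttacatccttccttgtAGagt

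All of these printed introns start with GT and end with AG, but they are a choice among the introns that these members spanned. Another annotated intron in the Srsf11 member, intron 2 of 5 with 25 bases, starts with AG and ends with GC. Over all 3170 introns that members spanned, 96.8% started with GT and ended with AG. The share was 98.0% of the 22784 other introns of the same genes and 97.6% of the 212575 introns of protein-coding transcripts. The full donor start GTAAG stood in 21.8% of the spanned introns, in 25.7% of the other introns of these genes and in 28.4% of all. A start of ATATCC or GTATCC, as introns of the minor spliceosome have, was found in 22 of the spanned introns (0.694%), in 101 others of these genes (0.443%) and in 940 of all (0.442%). The spanned introns were short and rich in G and C. Their median length was 312.5 bases (quartiles 151 and 787) with 63.7% under 500 bases, against a median of 917 bases and 35.5% for the other introns of the same genes and 1403 bases and 25.6% for all. Their median GC content was 50.8%, against 47.2% and 45.1%. These are features of the annotated transcripts that the count rule kept, and they hold no comparison of the ages. Where a member spanned no whole intron, the intron that held its own bases had a median length of 2104 bases.

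**Figure D1:**
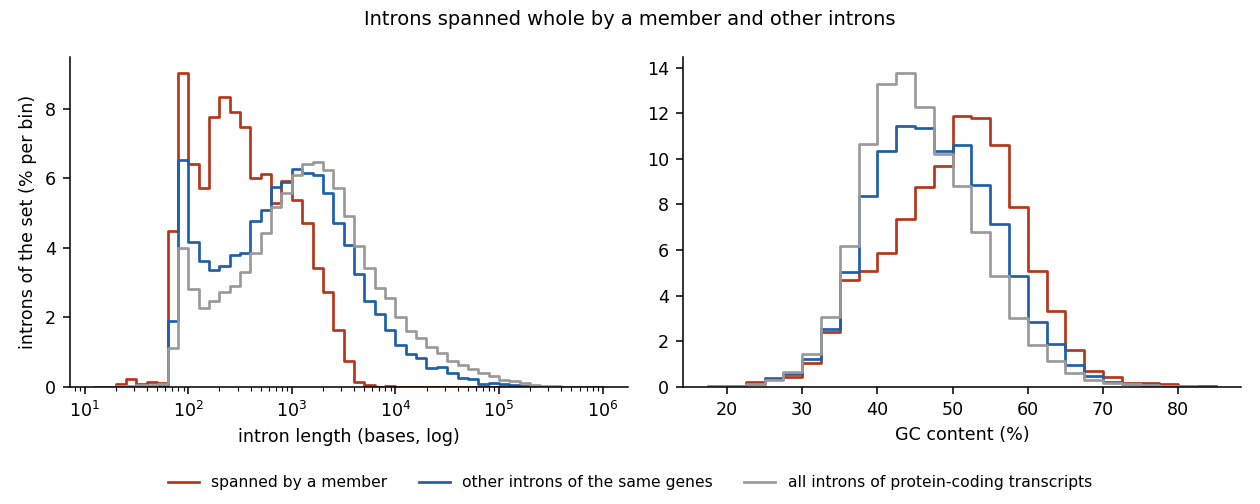
Lengths (left, log axis, in bases) and GC content (right, in percent) of introns that a member spanned whole, of the other introns of the same genes and of all introns of protein-coding transcripts, as the percent of each set per bin. The spanned introns lie to the left in length, with a median of 312.5 bases, and to the right in GC content, with a median of 50.8%.

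The members held 4.06% and 3.83% of all counts in the mature libraries and 3.86% and 2.99% in the elderly libraries. The second elderly library was the lowest, and the first lay between both mature ones, so the ages overlapped. The mean share was 3.95% ± 0.157 (SD, n = 2) in mature and 3.42% ± 0.613 (SD, n = 2) in elderly mice, a difference of -0.523 percentage points that did not pass an exact permutation test (2-sided p = 0.667). With 2 libraries against 2 the smallest p this test can give is 1 in 3. The difference rested on the second elderly library and came to -0.0898 points without it. The 95% Wilson intervals, which cover counting error only, ran from 3.84% to 3.87% for the first elderly library and from 2.98% to 3.00% for the second. Leaving out members of blood cell marker genes left the difference at -0.524 points. Those members held few counts, as the share went from 4.056% to 4.052% in the first mature library and from 2.989% to 2.985% in the second elderly one. The removal could therefore hardly move the difference, and the part of blood cells in it was not tested.

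The same elderly library was also the lowest in other noncoding classes. Processed transcripts held 1.94% and 1.87% of counts in mature and 1.89% and 1.56% in elderly libraries, and long intergenic noncoding RNAs held 5.10% and 5.20% against 4.93% and 4.07%. Protein-coding transcripts held 81.7% and 82.1% in mature and 79.3% and 85.2% in elderly libraries, with the highest share in the library where the members had the lowest.

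**Figure D2:**
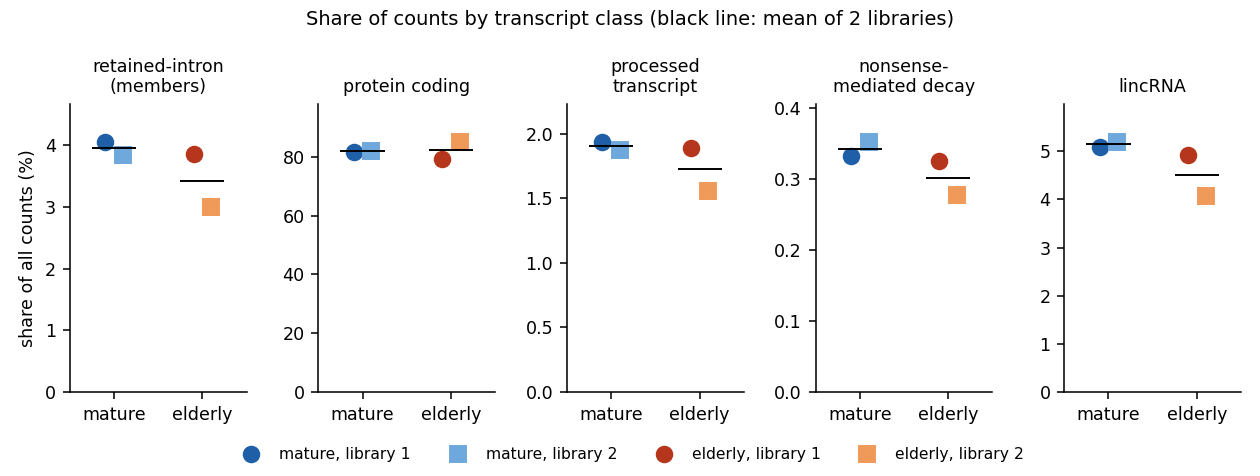
Share of all counts (percent, each axis from 0) of the retained-intron members and of other transcript classes in the 4 libraries, with the mean of the 2 libraries of an age as a black line. The second elderly library has the lowest share of members (2.99%), processed transcripts (1.56%) and long intergenic noncoding RNAs (4.07%) and the highest of protein-coding transcripts (85.2%).

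Most members had few counts. The median member summed to 98 counts over the 4 libraries (quartiles 47 and 242) and the highest to 78172. The 10 highest held 10.9% and the 100 highest 29.3% of all member counts. Of the 3552 genes, 1990 had 1 member and 1562 had 2 or more, up to 10. In genes with several members the levels per kilobase of own bases differed by a median of 0.91 on the log2 scale between the highest and the lowest member, and in 198 of these genes (12.7%) by over 2.

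The highest member lay in Cxcl12, the chemokine that keeps hematopoietic stem cells in the marrow. It had 22400 and 25010 counts in mature and 10894 and 19868 in elderly libraries, both elderly levels below both mature ones after scaling. Its level averaged 2007 CPM ± 171 (SD, n = 2) at 3 months and 1164 CPM ± 274 (SD, n = 2) at 24 months. This log2 fold change of -0.79 (SE 0.23) did not pass edgeR's quasi-likelihood test (adjusted p = 0.113), and it passed in edgeR without a filter (adjusted p = 0.0277), with library size alone (0.0248) and in the robust fit (0.0287). Its own bases reached past the end of a protein-coding transcript in intron 3 of 3 of a longer one, and the protein-coding transcripts of Cxcl12 had 113089 and 134076 against 69062 and 121750 counts. The other members among the 8 with the most counts came from Tmed7 (a cargo receptor of the early secretory pathway), Zfand5 (a zinc finger protein that binds ubiquitin), Ifrd1 (a transcriptional coregulator), Srsf3 and Srsf2 (SR proteins), Ogt (the enzyme that puts O-linked N-acetylglucosamine on proteins) and Wdr86. None of the 8 passed the test as fitted, and Cxcl12 and Wdr86 passed in some alternatives.

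Wdr86 had 4141 and 2941 counts in mature and 1557 and 2761 in elderly libraries, with both elderly levels lower after scaling (log2 fold change -0.87, SE 0.25, adjusted p = 0.0936 in edgeR). It was called by DESeq2 (adjusted p = 0.0430), by edgeR without a filter (0.0202) and in the robust fit (0.0115). Zfand5 had 4912 and 4009 against 3180 and 3771 counts (log2 fold change -0.48, SE 0.23, adjusted p = 0.577 in edgeR). The Ogt member, with its own bases in intron 5 of 22, had 3122 and 2811 against 2506 and 3559 counts, and its ages overlapped (log2 fold change -0.11, SE 0.23). Ogt is known for a retained intron that responds to the cell's O-linked N-acetylglucosamine, and whether this member covers that intron was not tested. Srsf3, Srsf2 and Tmed7 lay within 0.05 of 0 on the log2 scale and their ages overlapped.

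Against the protein-coding transcripts of the same gene, the members were read as counts per 100 protein-coding counts. A protein-coding transcript with countable sequence summing to over 20 counts was present for 4184 members in 2395 genes. For 1974 members the protein-coding sum was 20 or less, and for 382 of these the coding transcripts had no own base. The other 38 members lay in genes without a protein-coding transcript. Over the 4184 pairs the median was 28.3 and 27.0 counts per 100 protein-coding counts in mature and 29.0 and 24.7 in elderly libraries. Summed over the pairs the members had 21.7 and 19.5 against 20.5 and 15.1 per 100. In both measures the first elderly library lay among the mature ones or above them, and the second was the lowest. In 854 pairs (20.4%) the member had more counts than the protein-coding transcripts in all 4 libraries, and in 1115 (26.6%) it had under 10 per 100.

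Counts depend on how many bases can be counted, so coverage per own base was compared for the 2969 pairs with at least 200 own bases on each side. Intronic own bases were covered at a median of 45.4% of the coverage of the protein-coding own bases (quartiles 16.4% and 112%). Members that spanned a whole intron had a median of 54.7% (810 pairs) and the others 42.4% (2159 pairs). In 845 pairs the intronic bases were covered more deeply than the coding ones, and in 413 pairs at under 10%. Own bases of protein-coding transcripts are those of 1 isoform alone, so these percentages are relative to the isoform-specific part of the coding transcripts and not to the whole mRNA.

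The question of retention with age was tested pair by pair, as the change of the ratio of member to protein-coding counts between the ages in one edgeR quasi-likelihood model with a term for each library. None of the 4184 members passed at an adjusted p under 0.05, where 0 of all 7041 pairs of any noncoding class passed (0.0%), and the lowest adjusted p of a member was 0.649. At an unadjusted p under 0.05 there were 209 members (5.0%), 47 with a higher and 162 with a lower ratio in elderly mice, beside 352 of all 7041 pairs (5.0%). DESeq2 and diffSpliceDGE also called 0, with 97 members each at an unadjusted p under 0.05, and limma-voom called 0 with 223. Without the second mature library 9 members passed, 2 higher and 7 lower, and without any other library 0 did. The median log2 difference of the ratio was -0.12 over the members (quartiles -0.55 and 0.30) with a median SE of 0.64, beside a median of -0.13 over all pairs. It ran from -0.2571 without the first elderly library to 0.0032 without the second, with -0.1956 without the second mature library, and came to 0.06 when each class was scaled by its own TMM factors, an alternative chosen after seeing the data.

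**Figure D3:**
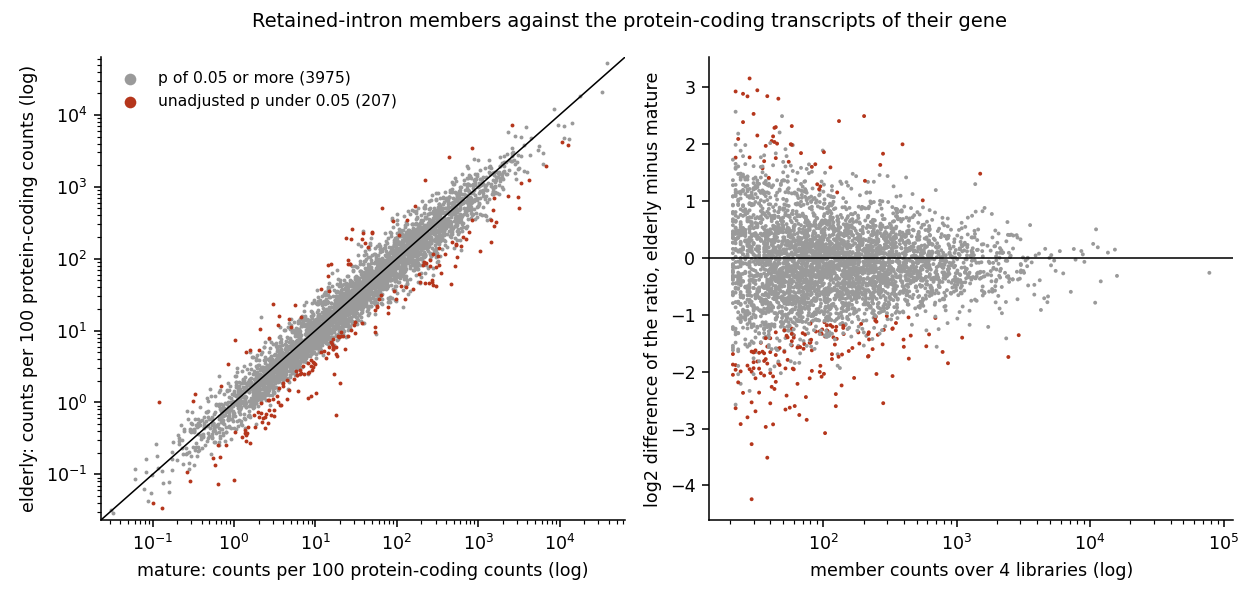
Left, counts of each retained-intron member per 100 protein-coding counts of its gene in elderly against mature mice (log axes, libraries of an age summed, line of equality in black), for 4182 pairs with counts in both ages (2 pairs were left out). Right, the log2 difference of that ratio (elderly minus mature) from the edgeR fit against the member's counts (log axis), with pairs at an unadjusted p under 0.05 in red on both sides and a spread that narrows with the counts.

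Members with a low p in this test were chosen for naming after their values were seen. The first 4 named had a lower ratio in elderly mice. Ctso, a lysosomal protease, had a member with 20 and 15 counts in mature and 0 and 3 in elderly libraries, while its protein-coding transcripts had 1903 and 1630 against 1217 and 2421. The log2 difference of the ratio was -3.51 (95% interval -5.21 to -1.82, adjusted p = 0.649 in edgeR). Pdcd10, an adaptor of kinase complexes in cell polarity, had 23 and 5 against 1 and 0 counts beside 88 and 68 against 60 and 89 protein-coding counts. Hells, a chromatin remodeller of dividing cells, had 24 and 37 against 9 and 27 counts in its member while its protein-coding counts ran from 137 and 126 to 369 and 280. Rasa1, a GTPase activator of Ras, had 34 and 42 against 15 and 33 beside 5 and 17 against 33 and 43. In these 4 genes both elderly levels of the member were below both mature ones, while the log2 ratio of the mean coding levels was -0.13 in Ctso, -0.21 in Pdcd10, 1.22 in Hells and 1.65 in Rasa1. None of the 4 passed in either test. Etl4 and Fan1 had a lower p in the ratio test than Hells and did not pass either. The ratio of the Etl4 member was higher in elderly mice (log2 difference 5.61, 95% interval 2.36 to 8.86). It had 28 and 70 against 26 and 27 counts beside 9 and 13 against 0 and 0 coding counts. That of the Fan1 member was lower (log2 difference -3.28, 95% interval -5.20 to -1.35).

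The members' own levels were tested between the ages across all 42413 transcripts with a count sum over 2. Of all transcripts tested 1.66% were called at an adjusted p under 0.05 in edgeR's quasi-likelihood test, 610 higher and 94 lower in elderly mice. Of the 6196 members 29 were called (0.468%), 16 higher and 13 lower, beside 1.44% of all transcripts higher and 0.222% lower. Members sum to over 20 counts by rule. Of the 28307 tested transcripts of any class over 20 counts, 2.49% were called, 610 higher and 94 lower. With an absolute log2 fold change over 2 as a further condition 11 members remained, beside 0.811% of all transcripts. Protein-coding transcripts over 20 counts were called in 4.03% and processed transcripts over 20 counts in 0.484%, and the median SE of the log2 fold change was 0.53 for members and 0.40 for the coding transcripts. At an unadjusted p under 0.05 there were 454 members (7.33%) beside 8.57% of all and 11.2% of all over 20 counts. The median log2 fold change was -0.13 over the members and -0.003 over all transcripts tested. Both elderly libraries lay below both mature ones in 24.3% of members and above them in 13.9%. These shares were 17.4% and 20.4% over all transcripts, and 19.7% and 20.4% over all with more than 20 counts.

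The number of calls depended on the libraries and the scaling. Without the first or without the second elderly library 0 members were called by edgeR, with 259 and 171 at an unadjusted p under 0.05, and 0 of all transcripts were called in either case. Without the first or the second mature library there were 60 and 54, beside 783 and 683 of all transcripts, and 19 of the 29 were among them in each case. The split of 16 higher and 13 lower became 5 and 7 with library size as the only scaling and 6 and 9 with TMM factors set without retained-intron transcripts. DESeq2 called 27 members, 12 higher and 15 lower, with 1235 left without an adjusted p, and shared 23 with the 29. Over 8 other settings of the fit 4 of the 29 were called in all, and 5 (Gpc2, Fgfr2, Tspo2, Itgb8 and E2f8) in 3 only.

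Among the 13 members called lower in elderly mice, that of Asxl3, a chromatin protein of the Polycomb-related Asx family, had 50 and 26 counts in mature and 0 and 0 in elderly libraries, at least 13.6-fold lower against a floor of 3 counts per library (adjusted p = 0.000216 in edgeR). Of its 3833 own bases 3735 lay in intron 2 of 13. Unc5c encodes a netrin receptor. Its member had 30 and 33 against 0 and 3 counts, a ratio of 23.0 with a 95% counting interval of 7.51 to 114, and lay in intron 2 of 16 (transcript at chr3:141128563-141343762, plus strand, adjusted p = 0.00364 in edgeR). The protein-coding transcripts of Unc5c had 377 and 338 counts in mature and 41 and 202 in elderly libraries.

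The growth hormone receptor gene Ghr held a pair of called members, one with 680 and 482 counts in mature and 196 and 253 in elderly libraries (log2 fold change -1.50, SE 0.28) and one with 1210 and 1453 against 492 and 659 (log2 fold change -1.34, SE 0.25). The coding transcripts of Ghr had 3707 and 4775 against 1582 and 3963 counts. Fgfr2, a receptor for fibroblast growth factors, had a member in intron 14 of 17 with 80 and 98 against 33 and 33 counts (log2 fold change -1.54, SE 0.40, adjusted p = 0.0490 in edgeR). Gys1, the glycogen synthase of muscle and most other tissues, had 146 and 177 against 54 and 54 counts (log2 fold change -1.69, SE 0.35). Its coding transcripts had 623 and 602 against 328 and 398 counts.

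The Groucho-family corepressors Tle1 and Tle2, which are recruited by Wnt and Notch pathway factors, both had a called member. That of Tle1 lay in intron 2 of 20 and had 329 and 191 counts in mature and 90 and 93 in elderly libraries, and that of Tle2, which spanned 5 introns including the one printed above, had 676 and 911 against 365 and 478. The coding transcripts had 150 and 131 against 53 and 76 counts in Tle1 and 85 and 128 against 65 and 74 in Tle2. Gpc2, a cell-surface proteoglycan, had 34 and 17 against 4 and 4 counts, and Pde6d, a carrier of prenylated proteins, had 185 and 140 against 63 and 33. Peg3, Nos1ap and Cdh2, which complete the 13 and are named with Tle2 and the second Ghr member outside the naming rule, had log2 fold changes of -1.40, -1.27 and -1.14. Cdh2, the gene of N-cadherin, had the most counts among them, 2253 and 1430 against 778 and 1046.

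Among the 16 members called higher in elderly mice, a pair lay in Lgr5, the R-spondin receptor that marks stem cells of several epithelia. The larger one ran through intron 11 of 17 and had 50 and 23 counts in mature and 240 and 499 in elderly libraries, with a mean of 3.08 ± 1.59 CPM (SD, n = 2) against 27.7 ± 8.99 CPM (SD, n = 2). Its log2 fold change was 3.17 (SE 0.38, adjusted p = 4.15e-05 in edgeR). The second had 0 and 4 against 15 and 75 counts in intron 6 of 17, a ratio of 20.6 with a 95% counting interval of 7.76 to 77.1. The coding transcripts of Lgr5 had 194 and 172 counts in mature and 689 and 2753 in elderly libraries.

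Mfap5, a protein of elastin-associated microfibrils, had a member in intron 6 of 9 with 3 and 0 against 49 and 55 counts, a ratio of 31.7 with a 95% counting interval of 10.5 to 156, beside 1 and 2 against 68 and 44 coding counts. Itgb8, the integrin subunit that activates latent TGF-beta, had 2 and 4 against 32 and 20 counts in its member and 38 and 57 against 378 and 595 in its coding transcripts. Lgi1, a secreted protein best known from the nervous system, had 0 and 1 against 37 and 11 counts, a ratio of 43.9 with an interval of 7.51 to 1768, and Insrr, the insulin receptor-related receptor, had 3 and 2 against 33 and 26. Slc44a5, of the choline transporter-like family, had 6 and 9 against 31 and 75 counts, and E2f8, an atypical E2F repressor of the cell cycle, had 6 and 1 against 40 and 20.

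The remaining 8 called higher are named outside the naming rule. They were the pair in Sorbs2, an adaptor of the actin cytoskeleton, with log2 fold changes of 1.02 and 1.09, and members of Irf8 (1.41), Tmcc2 (1.50), Clcn3 (1.53), Adam8 (1.59), Prc1 (1.72) and Tspo2 (1.78). Irf8 is a transcription factor of monocytes and dendritic cells, Adam8 a metalloproteinase of leukocytes, Tspo2 a membrane protein of erythroid cells and Prc1 a protein of the dividing cell's midzone. The Irf8 member had 93 and 104 against 286 and 277 counts, that of Tspo2 had 27 and 14 against 68 and 86, and that of Prc1 had 48 and 41 against 151 and 168. The summed levels of the erythroid and neutrophil marker lists, given above, were also higher in both elderly libraries, while those of the macrophage and megakaryocyte lists overlapped. The part of these cell types in these members' levels was not tested. No member of a gene on those marker lists was called.

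In the 29 called members the ages did not overlap, as in 37.7% of all transcripts tested. A ratio to coding transcripts could be fitted for 22 of them, and in all 22 the mean level of the gene's protein-coding transcripts differed in the same direction, without overlap between the ages. These members were picked for an age difference in the same libraries, so this is a description. The share of such pairs over all genes was not computed. Of single protein-coding transcripts over 20 counts, not summed per gene, 25.9% had both elderly libraries above both mature ones and 16.2% below. Of the 570 pairs whose member had over 500 counts, the sign was the same in 400. The lowest unadjusted p for a change of the ratio among the 22 was 0.00217, for Unc5c (log2 difference -2.76, 95% interval -4.45 to -1.07, adjusted p = 0.779 in edgeR), and it was the only one under 0.05. For the other 21 the 95% interval of the log2 difference held 0, and for 4 of the 22 it reached past 2-fold in both directions. The interval of the larger Lgr5 member ran from -0.66 to 1.44 and that of Itgb8 from -2.30 to 1.80. The other 7 (Asxl3, Gpc2, Pde6d, Clcn3, Adam8, Tspo2 and E2f8) had too few coding counts for the test.

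**Figure D4:**
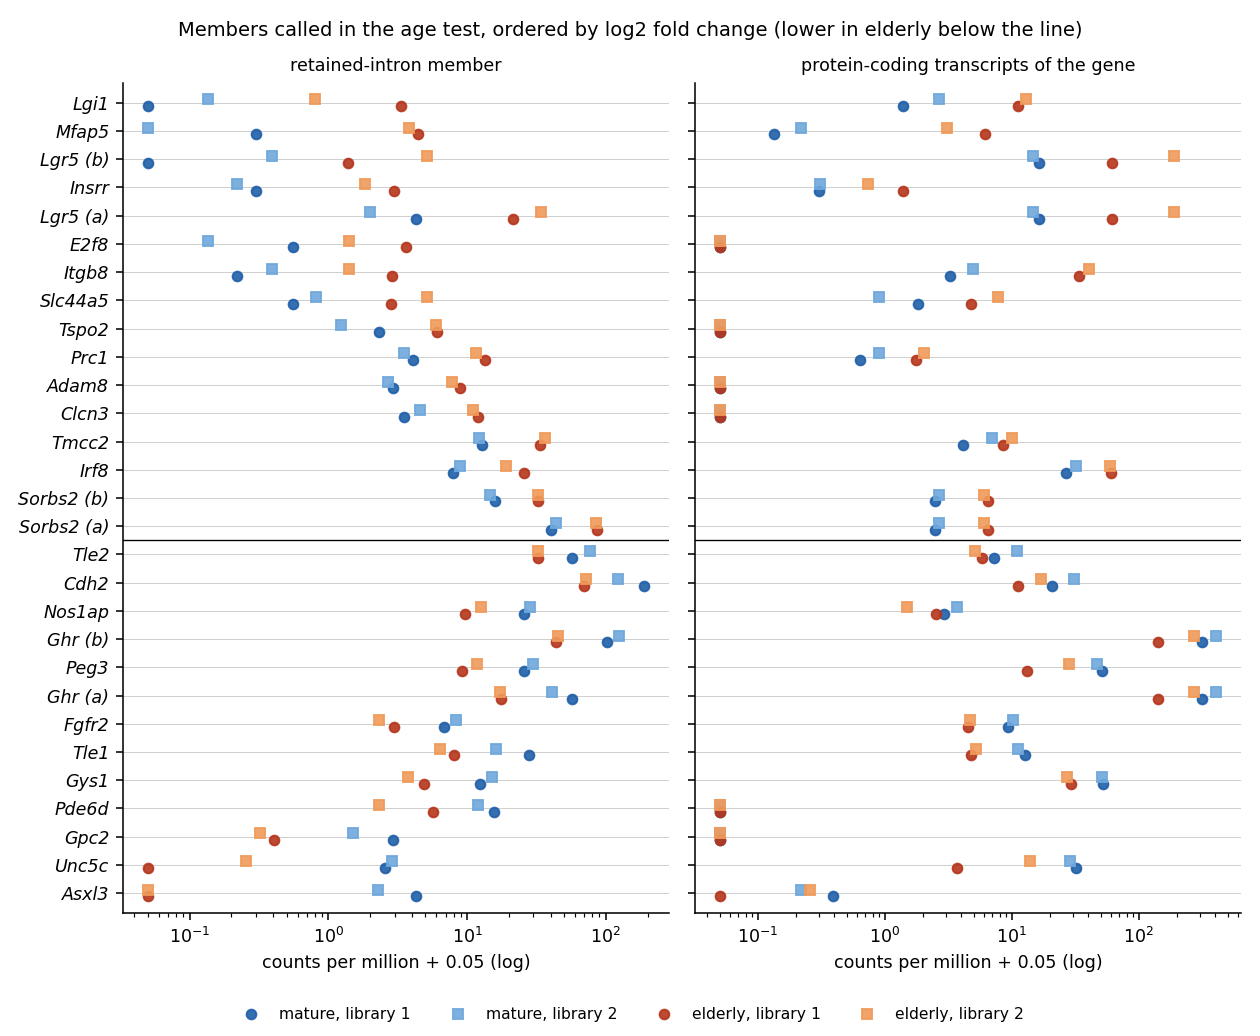
Levels of the 29 members called in the age test (left) and of the protein-coding transcripts of their genes (right) in the 4 libraries, in CPM plus 0.05 on a log axis, ordered by log2 fold change, with those lower in elderly mice below the line. The elderly libraries (red and orange) lie on the same side of the mature ones (blue) on the left and on the right wherever the coding transcripts had more than a few counts, while Gpc2, Pde6d, Clcn3, Adam8, Tspo2 and E2f8 sit at 0 on the right.

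Genes with a called member often had further members that were not called. In 11 of the 26 genes there were 20 such members, and the log2 fold change of all 20 had the sign of the called one. Fgfr2 had 6 of them. The one with the most counts had 791 and 514 counts in mature and 349 and 348 in elderly libraries (log2 fold change -1.01, SE 0.28, adjusted p = 0.0746 in edgeR), and the shortest, with 16 own bases, had 27 and 16 against 15 and 11. In all 6 both elderly levels were below both mature ones after scaling. The 3 other members of Clcn3, a chloride and proton exchanger of endosomes, had 30 and 26 against 67 and 78, 24 and 18 against 49 and 54, and 15 and 12 against 27 and 29 counts. Members of a gene lie in introns of one precursor, so they are not independent of each other.

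Across the 4182 pairs with coding counts in both ages, the log2 age differences of the member and of the coding transcripts had a Pearson's r of 0.34 and a Spearman's rho of 0.27, and across the 570 pairs whose member had over 500 counts an r of 0.53 and a rho of 0.41. Both values of a pair come from the same libraries, so this is given as a description across genes.

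The SR proteins bind exonic enhancers and help to define introns, and the CLK and SRPK kinases phosphorylate them. Of the SR list 18 members in 9 genes were in the set and of the kinase list 15 members in 5 genes, and edgeR called 0 of these 33 (1 at an unadjusted p under 0.05, lowest adjusted p 0.560), where 0.468% of all members and 1.66% of all transcripts were called, so a count of 0 says little about these lists. DESeq2 called 0 (0 at an unadjusted p under 0.05, 3 without an adjusted p), and the exact test at a dispersion of 0.2 called 0 (1 at an unadjusted p under 0.05). Both elderly libraries lay below both mature ones in 15 of the 33, above them in 1, and overlapped with them in 17, beside 24.3% below and 13.9% above over all members and 17.4% and 20.4% over all transcripts. A negative log2 fold change was found for 26 of 33, where the median over all members was itself negative, at -0.13. The share of negative values over all members was not computed. The 33 members lie in 14 genes, and members of a gene are not independent of each other. The summed level of the SR members was 833 and 879 CPM in mature and 854 and 703 CPM in elderly libraries, and that of the kinase members 255 and 241 against 209 and 193 CPM. Only the kinase sum was lower in both elderly libraries, and it was not tested as a sum.

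Srsf3 and Srsf2 had the highest of these members. That of Srsf3, which spanned introns 3 and 4 of 5, had 3207 and 3421 counts in mature and 3378 and 3568 in elderly libraries, a mean of 281 ± 14.9 CPM (SD, n = 2) against 272 ± 40.5 CPM (SD, n = 2). That of Srsf2 had 2305 and 2975 against 2645 and 3135 counts. Per own base the Srsf3 member had 153% of the coverage of the gene's coding transcripts, whose counts were 1053 and 1813 against 1443 and 1276. The ratio of Srsf3 differed by a log2 value of 0.09 (95% interval -0.83 to 1.02).

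The highest member of Srsf11, which is intron 4 of 5 as printed above, had 1121 and 964 counts in mature and 919 and 896 in elderly libraries (log2 fold change -0.30, SE 0.25). Its coding transcripts had only 49 and 62 against 41 and 53 counts on 1 isoform's own bases. Srsf5 had a pair of members with 688 and 638 against 536 and 587 counts and with 330 and 286 against 293 and 322. Tra2b had a member in intron 1 of 8 with 1027 and 743 against 844 and 756 counts and one in intron 8 of 8 with 132 and 95 against 82 and 65. In Tra2b the second had both elderly levels lower after scaling (log2 fold change -0.72, SE 0.37, adjusted p = 0.624 in edgeR) and the first overlapped. Son, a large nuclear speckle protein, had 376 and 462 against 309 and 339 counts (log2 fold change -0.49, SE 0.27) and Rsrc1 had 388 and 486 against 321 and 368 (-0.46, SE 0.27). The 5 members of Srrm1 all had 62 counts or fewer per library, and the smallest of them held the only unadjusted p under 0.05 of both lists, with 11 and 16 against 3 and 6 counts (adjusted p = 0.560 in edgeR).

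Of the kinases, Clk1 had 3 members with both elderly levels below both mature ones. The largest spanned introns 3 and 4 of 12 and reached past the end of a coding transcript. None of its own bases lay in these introns, so its counts do not measure their retention. This member had 945 and 1039 against 766 and 847 counts (log2 fold change -0.41, SE 0.24, adjusted p = 0.716 in edgeR). The next had 466 and 391 against 287 and 370, and the third 71 and 69 against 51 and 49. Clk4 had 4 members, the highest with 732 and 635 against 528 and 759 counts (log2 fold change -0.23, SE 0.25) and 3 with under 40 counts in each library. The 3 members of Clk2 had log2 fold changes between -0.10 and 0.25, and the highest of the 4 in Srpk1, which spanned a pair of introns, had 220 and 201 against 221 and 234 counts (log2 fold change 0.001, SE 0.29). Dyrk1a had 132 and 152 against 119 and 111 counts.

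**Figure D5:**
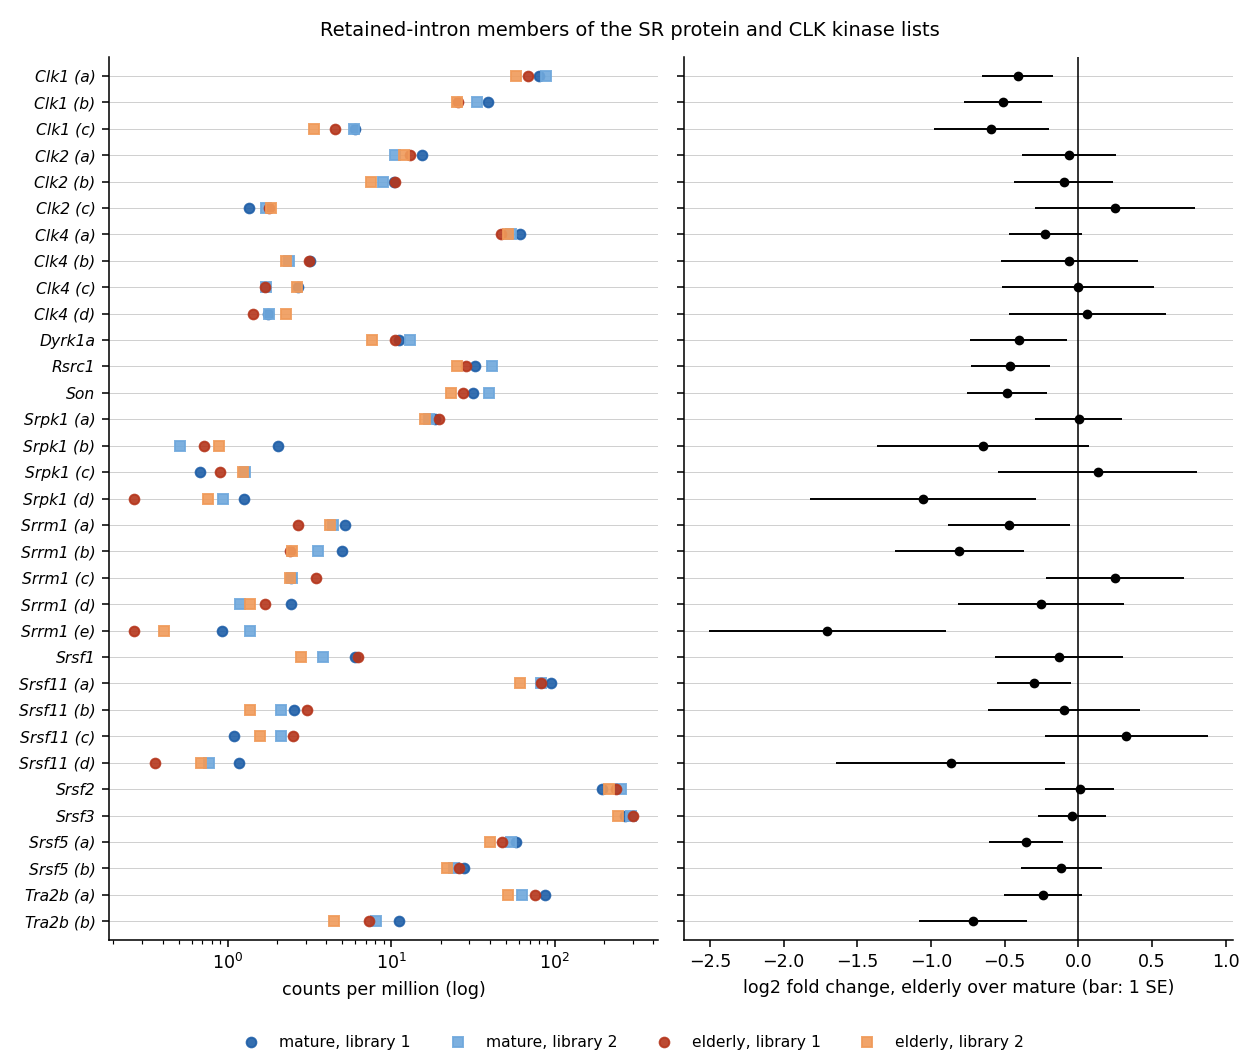
The 33 members of the SR protein and CLK kinase lists, with their level in each library in CPM (left, log axis) and the log2 fold change of elderly over mature mice with 1 SE (right), members of a gene lettered by falling level. The libraries of the ages overlap in 17 members. On the right 26 of 33 points lie left of 0, where the median over all members of the set was -0.13.

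The other splicing and decay lists also held no called member, at a share of 0.468% over all members and 1.66% over all transcripts. The list of hnRNPs and other RNA-binding regulators had 47 members in 20 genes, with a median log2 fold change of -0.30 and a range from -1.64 to 0.31, and summed to 945 and 837 CPM in mature and 752 and 652 CPM in elderly libraries. The core spliceosome had 37 members in 20 genes with a median of -0.19, and the nonsense-mediated decay and exosome list 14 members in 9 genes with a median of 0.15, beside the median of -0.13 over all members. In edgeR 6, 1 and 0 of these members had an unadjusted p under 0.05, and DESeq2 called 0 with 3, 0 and 0. By ratio to the coding transcripts 45, 22 and 6 members of these lists were tested, none was called, and the medians were -0.12, 0.28 and 0.05.

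Of the cell type lists, the stromal genes had 4 members (median log2 fold change -0.20), the osteoblast genes 7 in 3 genes (0.11, range -0.58 to 1.59) and the erythroid genes 9 in 7 genes (1.43, range -0.33 to 4.31), and 0 of them were called in edgeR or DESeq2. At an unadjusted p under 0.05 there were 1, 1 and 5 members by both tools, and in edgeR without a filter or in the robust fit 1, 1 and 4 were called. The summed level of the 9 erythroid members was 11.6 and 6.38 CPM in mature and 26.6 and 19.2 CPM in elderly libraries. Members in B lineage, plasma, neutrophil, megakaryocyte, macrophage and endothelial marker genes numbered 3, 1, 1, 3, 1 and 2, there was 1 among nuclear noncoding RNA genes and 0 among T cell genes. None was called in edgeR, where the plasma and the nuclear noncoding RNA member had an unadjusted p under 0.05, or in DESeq2, and the exact test called the 1 of the nuclear noncoding RNA genes.

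The medians of the age difference were compared over the places where members lie, as a description. Members that spanned a whole intron had a median log2 fold change of -0.09, with 10 called of 1960 (0.510%). Those that spanned none had -0.16 with 19 called of 4236 (0.449%), among them members in genes without a coding transcript. Both shares lay near the 0.468% of all members, beside 1.66% of all transcripts. Members past the end of a coding transcript had a median of -0.09 (466 members), and members whose own bases lay in the first, an inner or the last intron had medians of -0.12, -0.14 and -0.07. By the length of that intron the medians ran from -0.13 for up to 500 bases over -0.11 and -0.13 to -0.21 for over 10000 bases, with no test of the differences.

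Calls were compared over depth and own bases. Over all members 0.468% were called and over all transcripts 1.66%. The 1694 members with 21 to 50 counts had a median SE of 0.84 on the log2 scale and 1 call (0.059%). The 742 members with over 500 counts had a median SE of 0.30 and 12 calls (1.62%). The median log2 fold change was -0.02 in those with 21 to 50 counts and -0.24 in those with over 500. In the latter both elderly libraries lay below both mature ones in 38.4% of members and above them in 8.49%. All but 6 of the 29 calls came from the 1555 members with over 1000 own bases (1.48% of these), 14 higher and 9 lower. The 1254 members with up to 200 own bases gave 0.

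The 38 members in genes without a protein-coding transcript lie in genes typed as long intergenic noncoding or processed transcript. EdgeR called 0 of them, where 0.468% of all members and 1.66% of all transcripts were called, so a count of 0 says little. A member of Ankzf1 and that of Atp10d had an unadjusted p under 0.05 in edgeR, as did 7.33% of all members and 8.57% of all transcripts. Those with the most counts were chosen after their values were seen. B230216N24Rik had 256 and 126 counts in mature and 146 and 193 in elderly libraries, and Ppp4r1l-ps had 90 and 127 against 91 and 166, with the ages overlapping in both. Ankzf1 had 169 and 115 against 58 and 120 counts, with both elderly levels lower after scaling (log2 fold change -0.84, SE 0.35, adjusted p = 0.447 in edgeR).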

How the data were processed

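RNA of Lin- LEPR+ bone marrow cells from mature and elderly mice was analysed in 4 libraries, grouped by the titles of the sample labels. The authors trimmed reads with cutadapt and used HISAT2 for mapping against mm9 (NCBI Build 37). They deposited raw counts per Ensembl transcript from featureCounts, 1 table per library. Versions, the annotation and the strand setting of the counting are not given in the sources used here, so antisense reads may be included. All but 388 transcripts were matched to GENCODE M1 and these held at most 0.0888% of counts. The members and lists were chosen with earlier results of these data known.

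Counts summing to over 2 (42413 transcripts) were scaled by TMM (factors 0.996, 1.002, 1.072 and 0.935) and compared between the ages with edgeR 4.0.16 (R 4.3.3, quasi-likelihood test, 2-sided, trended dispersion, common dispersion 0.0900), with Benjamini-Hochberg adjustment over all transcripts and calls at an adjusted p under 0.05. The ratio test put the member and the summed protein-coding counts of its gene, each over 20, in 1 model with library and class terms, over 7041 pairs. Shares were compared by an exact permutation test. Named with values are the 8 members with the most counts, the 8 highest and 8 lowest log2 fold changes among called members with a mean of at least 1 CPM, members of the SR and CLK lists, any member of the other lists called in either test and transcripts next to the count threshold. Alternatives were DESeq2 1.42.0, limma-voom (limma 3.58.1), diffSpliceDGE, the study's exact test at a dispersion of 0.2, other filters, scalings and thresholds, a robust fit, the replicate number as a term and each library left out, and scaling each class by its own TMM was added after seeing the data. The scripts were tested on simulated data. Intervals of shares are Wilson intervals at 95%, and ratios of low counts are exact binomial. The sequences were read from the mm9 genome.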

Additional observations from a re-analysis of the deposited data

How the results depend on the processing

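The count of members called in the age test (29, with 16 higher and 13 lower in elderly mice) became 11 (7 and 4) in the exact test at a dispersion of 0.2, 77 (36 and 41) without a filter, 12 (5 and 7) with library size alone, 15 (6 and 9) with TMM set without retained-intron transcripts and 79 (34 and 45) in the robust fit, with 27 in DESeq2 (23 of the 29 and 4 others) and 23 in filterByExpr (all among the 29). Among members with over 10 counts in each age it was 20 (10 and 10), and with an absolute log2 fold change over 2 it was 11 (8 and 3). The calls without a filter and in the robust fit held all 29, and those with library size alone 11 of them. Cxcl12 and Wdr86, not called as fitted, passed with the replicate block too (adjusted p = 0.0316 and 0.0149 in edgeR). Leaving out 1 library gave 0 to 60 calls (0 to 39 higher and 0 to 33 lower), with 0 without either elderly library. Members of Lgr5 (the larger), Mfap5, Asxl3 and Unc5c were called in all 8 settings of test, filter, scaling and block. The replicate numbers were checked for pairing, and deviations of libraries with the same number correlated at 0.0196 over all transcripts and 0.0028 over members. With 2 libraries per age this cannot show whether libraries of the same number shared a batch. The fit with the replicate block called 90 members (38 and 52) in the age test and 0 in the ratio test. The ratio test called 0 members in every alternative except without 1 library, where it called 0 to 9, the 9 being without the second mature library. The median log2 difference of the ratio was -0.12, 0.06 with each class scaled by its own TMM and -0.2571 to 0.0032 with 1 library left out, and the median log2 fold change of members was -0.13 and ran from -0.2747 without the first to -0.0505 without the second elderly library, with -0.0643 without the first mature library. The share difference of -0.523 points stayed negative, from -0.956 to -0.0898 with 1 library left out. Uncalled log2 fold changes near 0 changed sign for Tmed7 (0.0025 in DESeq2, -0.2208 to 0.1828 with 1 library left out), Srsf2 (-0.0078 with filterByExpr, -0.0174 with TMM without retained-intron transcripts, -0.1703 to 0.198 with 1 library left out) and Srsf3 (-0.2024 to 0.0962 with 1 library left out). The cause of these shifts was not tested.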
